A study of Mus musculus with 2 samples.

Results

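The genes described here are 10 genes of the neuromuscular junction, the synapse at which the motor nerve excites the myofibre. They encode the 5 muscle subunits of the acetylcholine receptor (Chrna1, Chrnb1, Chrnd, Chrne and Chrng), 4 organizers of the postsynaptic membrane (Musk, Dok7, Rapsn and Lrp4) and acetylcholinesterase (Ache). They were chosen by gene symbol among 19936 named nuclear genes, and all 10 were measured, each by 1 probe set, the group of probes that reports a gene on the array. PGC-1β(i)skm-/- mice carried floxed PGC-1β alleles, with LoxP sites around exon 5, and the HSA-Cre-ERT2 transgene, in which human skeletal actin elements drive a tamoxifen-dependent recombinase in myofibres only. Control mice were littermates with the same floxed alleles and no transgene, although their label reads wild-type. All mice were C57BL/6 males that were given 1 mg tamoxifen per day for 5 days from 7 weeks of age, and gastrocnemius muscle was taken at 8 weeks. There was 1 array per genotype, each hybridized with RNA pooled from 3 mice, so that differences have no error and no test was made. The transgene was present only in the mutants, and its own effect cannot be told apart from that of the deletion.

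At the junction, nerve-derived agrin binds Lrp4, which activates the kinase MuSK together with its cytoplasmic partner Dok7, and rapsyn then anchors the receptors in dense clusters. Nuclei of the myofibre that lie under the synapse transcribe several of these genes at a high rate. E-boxes, bound by myogenic factors, and the N-box, bound by the ETS factor GABP, are known elements of their promoters. In mouse muscle, the related coactivator PGC-1α is known to raise genes of this program with GABP. In developing muscle the receptor contains the γ subunit (Chrng), which the ε subunit (Chrne) replaces in the adult, and denervation raises Chrng again.

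The sequences shown are the 250 bases before the annotated start of 4 genes, the adult and foetal subunits Chrne and Chrng, and the genes with the lowest and the highest difference on the arrays, Chrna1 and Ache. Capitals mark matches, on either strand, to the E-box CANNTG or to the N-box core CCGGAA. Both the sequences and the coordinates are those of RefSeq on GRCm38.p6, each read on the strand of the gene.
Chrne, chr11:70619195-70619444, minus strand: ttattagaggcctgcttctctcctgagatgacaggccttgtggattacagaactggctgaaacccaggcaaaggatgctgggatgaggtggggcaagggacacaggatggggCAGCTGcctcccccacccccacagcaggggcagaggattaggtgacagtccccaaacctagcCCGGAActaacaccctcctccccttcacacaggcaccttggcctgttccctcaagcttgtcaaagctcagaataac
Chrng, chr1:87205561-87205810, plus strand: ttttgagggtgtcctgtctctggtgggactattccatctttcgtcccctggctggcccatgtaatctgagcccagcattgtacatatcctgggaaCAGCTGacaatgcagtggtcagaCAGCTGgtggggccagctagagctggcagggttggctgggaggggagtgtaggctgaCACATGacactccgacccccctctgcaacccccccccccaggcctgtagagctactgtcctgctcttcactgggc
Chrna1, chr2:73580339-73580588, minus strand: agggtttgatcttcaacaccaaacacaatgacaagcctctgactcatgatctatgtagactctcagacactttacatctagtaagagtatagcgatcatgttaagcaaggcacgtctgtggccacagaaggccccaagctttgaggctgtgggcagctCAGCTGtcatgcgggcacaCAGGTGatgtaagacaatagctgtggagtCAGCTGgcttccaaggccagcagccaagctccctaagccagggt
Ache, chr5:137288004-137288253, plus strand: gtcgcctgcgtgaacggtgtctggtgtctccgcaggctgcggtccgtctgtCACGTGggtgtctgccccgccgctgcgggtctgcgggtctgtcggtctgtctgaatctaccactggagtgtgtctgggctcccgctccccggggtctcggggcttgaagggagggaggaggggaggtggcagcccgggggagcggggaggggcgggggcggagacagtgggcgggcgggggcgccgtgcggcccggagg

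Of the 10 genes, 7 had such a window in the sequence table, with 8 windows in all because Dok7 has 2 starts, and Chrnd, Rapsn and Lrp4 had none. Chrne was the 1 gene of these with a match to the N-box core, 76 bases before the start, and 1 E-box lay further upstream at 138 bases. Over all 32851 windows of this length, 12.0% held the N-box core and 66.2% an E-box. Chrna1, Chrnb1, Chrng and Musk each held 3 E-boxes, Ache and 1 of the Dok7 windows held 1, and the other Dok7 window held none. The form CAGCTG occurred at 44 and 92 bases before the start of Chrna1, at 132 and 155 bases before that of Chrng, at 68 bases before that of Musk and at 138 bases before that of Chrne. The element of the oestrogen-related receptors, nuclear receptors that PGC-1β coactivates, was searched as TCAAGGTCA on both strands. It was in none of the 8 windows and in 0.387% of all windows. These matches are letters in a short window and not measured binding.

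**Figure D1:**
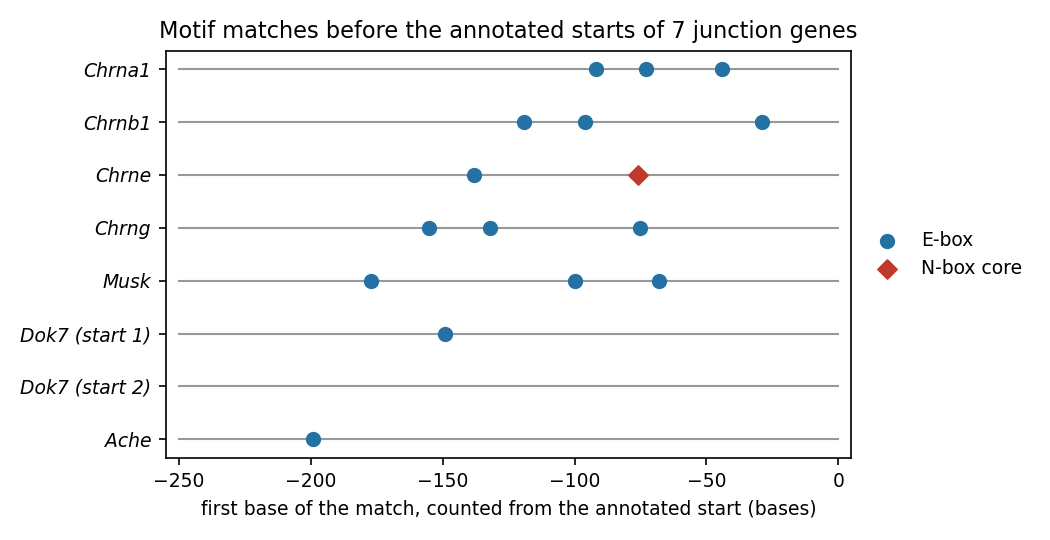
Each line is the stretch of 250 bases before an annotated start of 1 gene, with the start at the right end (horizontal axis, bases), and marks give the first base of each match to an E-box (circles) or to the N-box core (diamond). The diamond appears only on the line of Chrne, at 76 bases before the start.

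None of the 10 junction genes differed between the genotypes by as much as the ratios the methods use for a lower or a higher gene, 0.8 or less and 1.2 or more, which are −0.32 and 0.26 on the log2 scale. Of all named genes, 0.652% were at a ratio of 0.8 or below and 1.64% at 1.2 or above, so that 0 of 10 is near the background. With 1/1.2 in place of 0.8, which 1.69% of all genes reached, no junction gene was lower either. The log2 differences of the 10 genes, PGC-1β(i)skm-/- minus control, lay between −0.08 and 0.12, with a median of −0.0051, against −0.00055 over all named genes. They were below 0 for 5 genes and above 0 for 5, against 50.2% and 49.6% of all genes. A log2 difference of 0.12 was also the standard deviation over all named genes. Ppargc1b, the targeted gene, had a log2 signal of 7.06 on the PGC-1β(i)skm-/- array and 7.87 on the control array, a ratio of 0.569. Probes of this array are spread along each gene, and only exon 5 was deleted, in myofibres only. The ratio is therefore not the share of intact PGC-1β transcript left in myofibres. The paper reports a strong decrease of PGC-1β transcripts and protein in skeletal muscles of the mutants.

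**Figure D2:**
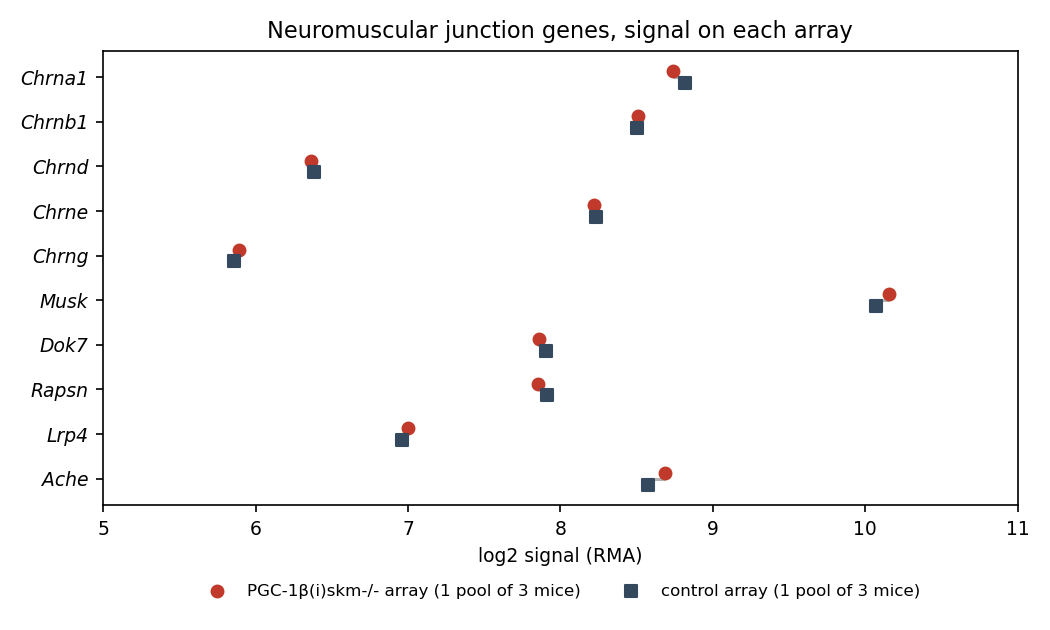
Log2 signal (horizontal axis) of each junction gene (vertical axis) on the PGC-1β(i)skm-/- array (red circles) and the control array (dark squares), each 1 pool of 3 mice. The signals of a gene on the 2 arrays lie within 0.12 of each other for all 10 genes, and the largest gap is that of Ache.

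Among the receptor subunits, the largest difference was that of Chrna1, encoding the α subunit, which carries the main part of the acetylcholine binding site. Its log2 signal was 8.74 on the PGC-1β(i)skm-/- array and 8.82 on the control array, 5.27% lower in the mutant, and 44.3% of all named genes had a log2 difference at least as large in either direction. Chrnb1, encoding the β subunit, had log2 signals of 8.51 in PGC-1β(i)skm-/- muscle and 8.50 in control muscle. Chrnd, encoding the δ subunit, had 6.36 in PGC-1β(i)skm-/- muscle and 6.38 in control muscle, a ratio of 0.988. These subunits belong to the receptor at all stages.

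Chrne and Chrng, the adult and the foetal subunit, both had nearly the same signal in the 2 genotypes. The log2 signal of Chrne was 8.22 on the PGC-1β(i)skm-/- array and 8.23 on the control array, and that of Chrng 5.89 on the PGC-1β(i)skm-/- array and 5.86 on the control array. The log2 difference of Chrne minus that of Chrng was −0.05. The signal of Chrng was below the median of all probe sets, 6.02 on the PGC-1β(i)skm-/- array and 6.00 on the control array, and without a measure of detection it is not known whether it was above background. Chrnd and Chrng are next to each other on chromosome 1, and their log2 differences were −0.02 and 0.03. Levels are not compared between genes, because probe sets differ in brightness.

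The organizers were divided between small positive and small negative differences. Musk, encoding the receptor tyrosine kinase on which the synapse depends, had log2 signals of 10.16 in PGC-1β(i)skm-/- muscle and 10.07 in control muscle, 6.05% higher in the mutant. Lrp4, its agrin-binding co-receptor, had 6.999 in PGC-1β(i)skm-/- muscle and 6.96 in control muscle. Dok7, the adaptor that activates MuSK from the inside, and Rapsn, encoding the receptor-clustering protein rapsyn, were on the other side of 0. Dok7 had log2 signals of 7.86 in PGC-1β(i)skm-/- muscle and 7.91 in control muscle, 2.97% lower in the mutant. Rapsn had 7.85 in PGC-1β(i)skm-/- muscle and 7.91 in control muscle, 4.37% lower in the mutant. The 4 genes thus had no common direction, with a median log2 difference of −0.0039.

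Ache, encoding the enzyme that ends transmission by hydrolysing acetylcholine, had the largest difference of the 10 genes. Its log2 signal was 8.69 on the PGC-1β(i)skm-/- array and 8.57 on the control array, 8.34% higher in the mutant. Over all named genes, 27.8% had a log2 difference at least as large in either direction. Ufsp1, the next protein-coding gene after Ache on chromosome 5 and itself listed among postsynaptic genes, had 8.58 in PGC-1β(i)skm-/- muscle and 8.49 in control muscle. Partners of cholinesterase had smaller differences on the same side of 0, with 0.02 for Colq, the collagen tail that holds the enzyme in the synaptic basal lamina, 0.05 for Prima1, a membrane anchor, and 0.03 for Bche, the related butyrylcholinesterase. Chrna1, Chrne, Rapsn and Ache each overlap another annotated gene in GRCm38.p6, and how much signal came from the overlapping transcripts was not tested. In whole muscle, fewer cells or nuclei of a kind and less RNA in each cannot be told apart.

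**Figure D3:**
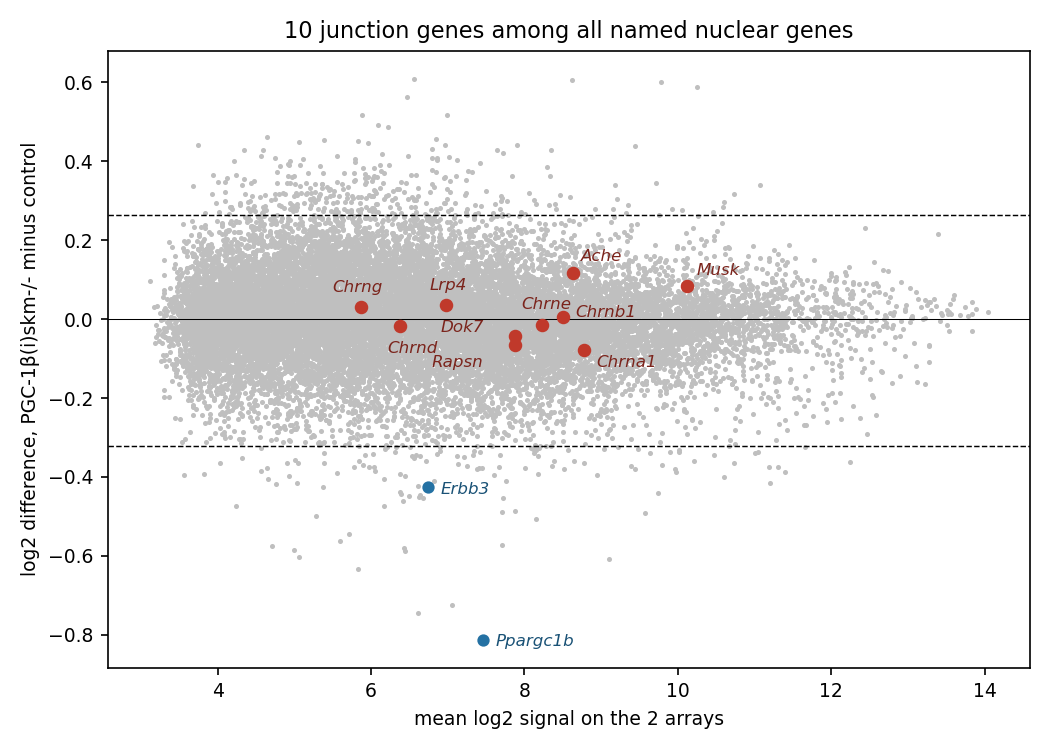
Grey points are the named nuclear genes, by the log2 signal averaged over both arrays (horizontal axis) and by the log2 signal of PGC-1β(i)skm-/- less that of control (vertical axis). Dashed lines are ratios of 0.8 and 1.2. The 10 junction genes (red) lie between −0.08 and 0.12, inside both lines, while Erbb3 and Ppargc1b (blue) lie at −0.43 and −0.81.

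By mean signal, the 10 genes were spread over the upper 3 of 4 groups of 4984 genes, 2 in the second, 3 in the third and 5 in the highest group. The standard deviation of the log2 difference over the genes of these groups was 0.13, 0.12 and 0.10. The values of Musk (0.08) and Chrna1 (−0.08) were thus smaller than the spread of single genes of like signal, and that of Ache (0.12) was slightly larger than it. This spread is between genes and not between mice.

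The upstream signals of the junction were represented by a list of 8 genes of neuregulin, its ErbB receptors and the ETS factors. Of these, 7 lay below 0 in their log2 difference, and the median over the list was −0.07. For this and each later list, the shares over all named genes were 50.2% below 0 and 49.6% above 0. A ratio of 0.8 or less was reached by 0.652% of all named genes and one of 1.2 or more by 1.64%. Erbb3, a neuregulin receptor found on Schwann cells as well as on muscle, was the 1 gene of the list with a ratio of 0.8 or less, with log2 signals of 6.53 on the PGC-1β(i)skm-/- array and 6.96 on the control array. Over all named genes, 0.271% had a log2 difference at least as large in either direction. Erbb3 was named because it was past a threshold, so this share is small by that choice. Its partner Erbb2 had a log2 difference of −0.11 and Etv5, an ETS factor of subsynaptic nuclei, of −0.09. Gabpa, the DNA-binding subunit of GABP, had log2 signals of 8.18 in PGC-1β(i)skm-/- muscle and 8.29 in control muscle. Chrne, with the N-box core in its window, had a log2 difference of −0.02 on the same arrays.

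Because Erbb3 is also expressed by Schwann cells, markers of the nerve were set beside it. Of 7 Schwann cell markers measured, 6 were lower in the mutant, and the median of their log2 differences was −0.08. Mbp, a protein of myelin, was the 1 marker with a ratio of 0.8 or less, with log2 signals of 7.26 on the PGC-1β(i)skm-/- array and 7.60 on the control array. S100b had a log2 difference of −0.13, Mag of −0.11 and Ncmap of 0.16. The 7 markers averaged 6.88 on the PGC-1β(i)skm-/- array and 6.95 on the control array, and their part in the signal of Erbb3 was not tested. Of 11 markers of the motor nerve terminal, 7 were lower in the mutant, none by a ratio past a threshold, and the median was −0.02. The largest differences were those of Nefl (0.21), Vamp1 (−0.16), Syt2 (0.14) and Slc5a7 (−0.07). These 11 markers averaged 5.53 on each array. The median of all probe sets was 6.02 on the PGC-1β(i)skm-/- array and 6.00 on the control array. Nefl had log2 signals of 4.96 in PGC-1β(i)skm-/- muscle and 4.75 in control muscle. Without a measure of detection it is not known which of these markers were above background.

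Of 13 genes for agrin and the cytoplasmic effectors of MuSK, 8 were below 0, with a median log2 difference of −0.04, and none had a ratio past either threshold. Crkl, an adaptor that binds Dok7, had log2 signals of 9.06 in PGC-1β(i)skm-/- muscle and 9.22 in control muscle. Dnaja3, a co-chaperone that binds MuSK and is also a protein of mitochondria, had 9.61 in PGC-1β(i)skm-/- muscle and 9.76 in control muscle. Abl2, a tyrosine kinase, had a log2 difference of −0.12, and Macf1, a linker of the cytoskeleton, one of −0.12. Agrn itself, which myofibres express beside the nerve and which is named here after its value was seen, was at 0.04.

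For the synaptic basal lamina, 8 of 9 genes were above 0, none past a threshold, and the median was 0.03. The largest values were those of the collagens Col4a5 (0.11), Col4a3 (0.09) and Col13a1 (0.07), and of Nid2 (0.05). The utrophin complex, which links the receptor clusters to the basal lamina, had 3 of 6 genes below 0 and a median of −0.00063, with Sntb2 at 0.10, Dag1, encoding dystroglycan, at 0.09, Utrn itself at −0.06 and Dtnb at −0.02. Of 7 other postsynaptic genes, 5 were above 0, with a median of 0.07. Nes, an intermediate filament protein, was at 0.12, Ncam1, a cell adhesion molecule, at 0.10, Ufsp1 at 0.09 and Prkar1a at 0.07. The 5 glycosylation genes mutated in congenital myasthenic syndromes had a median of 0.08 and none was past a threshold, with Dpagt1, the enzyme of the first step of N-glycan synthesis, at 0.16, Alg14 at −0.11, Alg2 at 0.11 and Gmppb at 0.08.

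**Figure D4:**
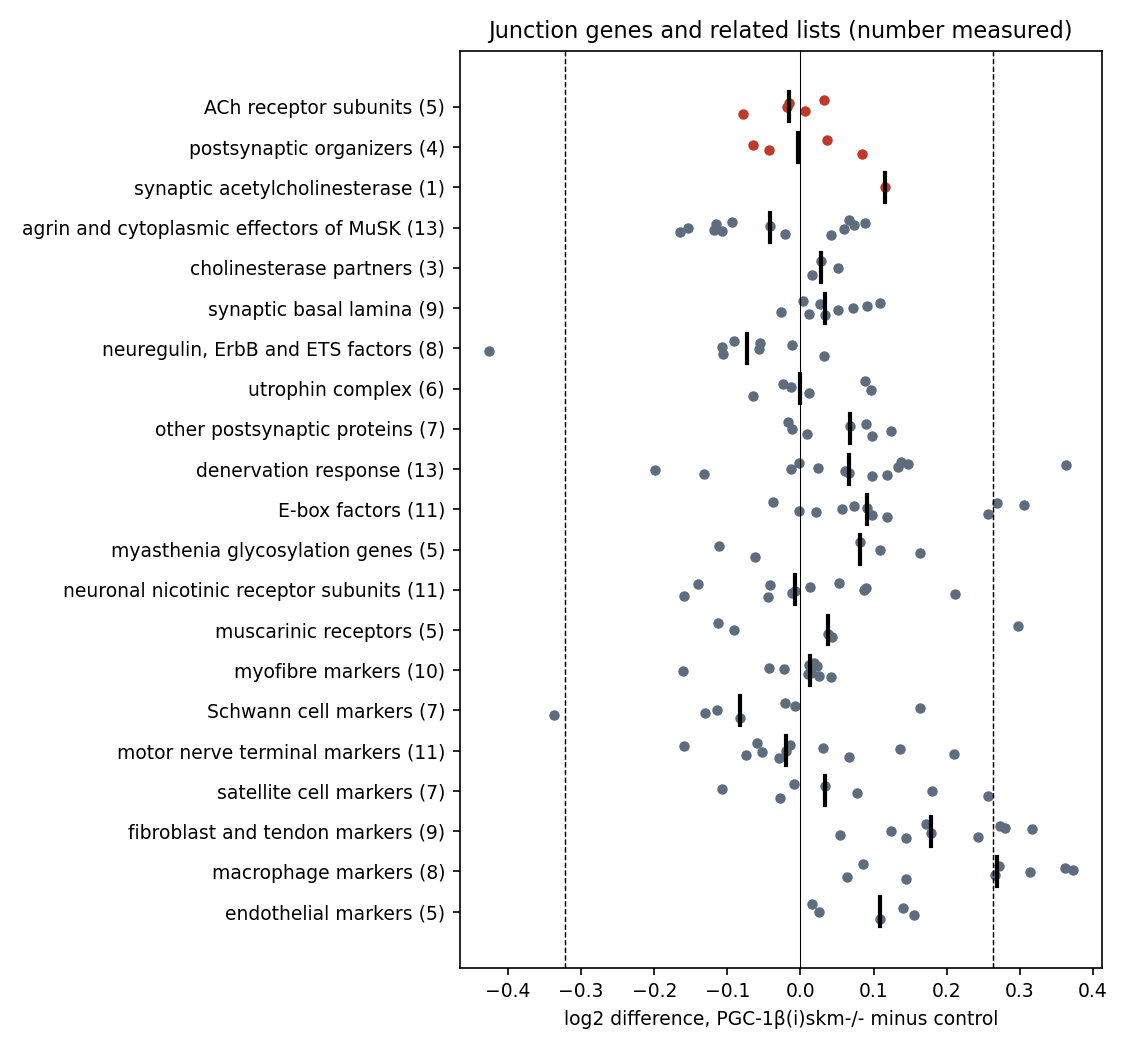
Points are single genes of the junction groups (red) and of related lists and cell type markers (grey, with the number measured), placed by the log2 signal of PGC-1β(i)skm-/- less that of control (horizontal axis). Bars are medians, and dashed lines are ratios of 0.8 and 1.2. No red point is past a dashed line, Erbb3 is the lowest grey point at −0.43, and the macrophage markers have the highest median, 0.27.

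Denervation, which raises Chrng, Chrna1 and Musk in mouse muscle, also changes a known set of myofibre genes. Of 13 such genes measured, 9 were above 0, with a median log2 difference of 0.07. The list holds genes that denervation raises and genes that it lowers, so the count gives no direction of that response. Ankrd1, a stress-responsive ankyrin repeat protein, had log2 signals of 8.51 on the PGC-1β(i)skm-/- array and 8.15 on the control array and was the 1 gene past a ratio of 1.2. Gadd45a, which denervation induces strongly, had 7.76 in PGC-1β(i)skm-/- muscle and 7.96 in control muscle. Trim63, a ubiquitin ligase of atrophy, was at 0.15 and Sln, an inhibitor of the calcium pump, at 0.14. The log2 signal of Sln was 5.80 in PGC-1β(i)skm-/- muscle and 5.66 in control muscle, below the median of all probe sets on each array.

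Of 11 factors that act on E-boxes, 9 were above 0, with a median of 0.09, and 2 had a ratio of 1.2 or more. These 2 were Id2 and Id3, inhibitors that keep myogenic factors from DNA. The list holds myogenic factors as well as such inhibitors, so the count and median give no direction of E-box activity. Id2 had log2 signals of 7.87 in PGC-1β(i)skm-/- muscle and 7.56 in control muscle, and Id3 had 6.99 in PGC-1β(i)skm-/- muscle and 6.72 in control muscle. When a loess curve of the difference on mean signal was subtracted, Id3 came to 0.261 and was no longer past the threshold. Myf5, which marks satellite cells, was at 0.26, just short of the threshold, at a log2 signal of 6.06 in PGC-1β(i)skm-/- muscle and 5.80 in control muscle, and Myod1 was at 0.12. Of the 4 junction genes with 3 E-boxes in their window, Musk was at 0.08, Chrna1 at −0.08, Chrnb1 at 0.01 and Chrng at 0.03.

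All 10 myofibre markers had log2 signals of at least 10.58 on the PGC-1β(i)skm-/- array and 10.62 on the control array, with a median log2 difference of 0.01. These genes mark skeletal muscle in general and do not tell the gastrocnemius from other muscles. Those farthest from 0 were Myh1 at −0.16, Myh7 at −0.04, Ckm at 0.04 and Acta1 at 0.03. Markers of other cells were counted in the same way, beside 49.6% of all named genes above 0 and 1.64% at a ratio of 1.2 or more. Of 8 macrophage markers, 8 were above 0 and 5 had a ratio of 1.2 or more, and the list averaged 7.12 on the PGC-1β(i)skm-/- array and 6.88 on the control array. Past that ratio were C1qa (0.37), C1qb (0.36) and C1qc (0.27), of complement, Mrc1 (0.31) and Csf1r (0.27). Of 9 fibroblast and tendon markers, 9 were above 0 and 3 had a ratio of 1.2 or more, with averages of 9.64 on the PGC-1β(i)skm-/- array and 9.44 on the control array. The largest differences of this list were those of Fmod (0.32), Tnmd (0.28), Thbs4 (0.27) and Lum (0.24). Of 5 endothelial markers, 5 were above 0 and none was past a threshold, with a median of 0.11 and with Cdh5 at 0.16, Tek at 0.14, Pecam1 at 0.11 and Kdr at 0.03. Of 7 satellite cell markers, 4 were above 0 and none was past a threshold, with a median of 0.03 and, after Myf5, with Calcr at 0.18, Itga7 at −0.11 and Cdh15 at 0.08. The part of these cells in the signals of Id2, Id3 and Ankrd1, or of the basal lamina genes, was not tested.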

How the data were processed

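RNA of each pool was hybridized by the authors to Mouse Gene 1.0 ST arrays of Affymetrix, scanned with Command Console 3.2 and turned into probe set signals in Expression Console 1.1. The deposited values are log2 signals made by RMA, that is background correction, quantile normalization and median polish, under which a shift common to all genes is lost. The sources used here do not give the genome build of the probe sets. Probe sets with 1 gene symbol (21789 of 35556) were named through the platform annotation, updated by Entrez ID to RefSeq symbols of GRCm38.p6 (21698 matched), and for the 997 genes with several probe sets the one of highest mean signal was used. The difference is PGC-1β(i)skm-/- minus control on the log2 scale, with ratios of 0.8 and 1.2 as thresholds, following the methods. With 2 arrays there was no test, and no gene could be named for a pattern across samples. The number of arrays limits the precision.

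The members and lists were chosen with earlier results of these data known. Named are the 10 members and, of each of 18 further lists, genes past a threshold and up to 4 of the largest differences. Each array was 1 sample of its genotype. Motifs were searched in windows of 250 bases before each start. Alternatives are given in the closing section. The calculation was tested on simulated data with added shifts larger than both thresholds. It was not tested on differences as small as those of the junction genes. Python 3.11.15, pandas 2.3.3, numpy 2.4.6, statsmodels 0.14.6 and matplotlib 3.10.9 were used.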

Additional observations from a re-analysis of the deposited data

How the results depend on the processing

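Each junction gene had 1 probe set once probe sets listing several genes were left out, so that the mean and the dimmest probe set gave the same values. Probe sets listing several genes were not examined. Subtracting a loess curve of the difference on mean signal (span 0.3) or the median difference of all genes moved the junction genes by at most 0.0202, and Chrne came to 0.0025 with the loess curve. The counts of junction genes past a threshold stayed at 0 with a ratio of 1/1.2, and with mean log2 signals of at least 6 or 7. With the loess curve 1 E-box factor in place of 2 had a ratio of 1.2 or more, since Id3 came to 0.261, and 4 fibroblast and tendon markers in place of 3, since Lum came to 0.263. With signals of at least 6 the number of muscarinic receptors was 0 in place of 1, since Chrm4 was left out. The medians of the 18 lists moved by at most 0.059. That of the satellite cell markers turned to −0.0094 and that of the glycosylation genes came to 0.023 with signals of at least 6. With the loess curve that of the utrophin complex turned to 0.014 and that of the genes for agrin and the MuSK effectors came to −0.022. No paired analysis was possible because each genotype had 1 array, and no replicate could be left out.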

Other observations

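Acetylcholine receptors outside the junction were also on the arrays. Of 11 neuronal nicotinic subunits, which myofibres are not known to use at the synapse, 6 were lower in the mutant, none past a threshold, and the median log2 difference was −0.0079. Their signals lay between 4.15 and 6.09 on the PGC-1β(i)skm-/- array and between 4.16 and 5.88 on the control array. The largest differences were those of Chrna4 (0.21), Chrna3 (−0.16), Chrnb3 (−0.14) and Chrna9 (0.09). Of 5 muscarinic receptors, Chrm4 had a ratio of 1.2 or more, at log2 signals of 5.71 in PGC-1β(i)skm-/- muscle and 5.41 in control muscle, and Chrm5 (−0.11), Chrm3 (−0.09) and Chrm1 (0.04) were nearer to 0. The log2 signal of Chrm1 was 6.54 in PGC-1β(i)skm-/- muscle and 6.50 in control muscle. Without a measure of detection it is not known which of these genes were above background.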
